A study of Mus musculus and Homo sapiens with 17 samples.

Results

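The MAP kinase phosphatases of the DUSP family were followed as 10 genes, Dusp1, Dusp2, Dusp4, Dusp5, Dusp6, Dusp7, Dusp8, Dusp9, Dusp10 and Dusp16, chosen by gene name. All 10 were found among the 54532 named features of the mouse table and, in upper case, among the 58735 named features of the human table. RNA had been sequenced to find genes that differ between skin lesions of wild-type (WT) and Dusp1 knockout (KO) mice, and between control and DUSP1 KO cells of A431, an established line of human squamous carcinoma cells. Mouse RNA was taken from whole frozen sections of C57BL/6-129 skin, all of it treated with the carcinogen DMBA and the tumour promoter TPA. The mouse groups were squamous cell carcinoma (SCC) labelled KO with 2 libraries, papilloma labelled KO with 3, WT SCC with 3 and WT skin with 3. The A431 groups were 3 libraries with a guide labelled DUSP1 and 3 control libraries with a guide labelled Tomato. In both arms 100000 cells grew within the skin of mice for 3 weeks and mouse cells were depleted before RNA extraction. The labels do not give the age of the mice, how the mouse allele was made, or whether the A431 KO cells were 1 clone. Nor do they tie libraries to separate animals or tumours. The descriptions of the 3 DUSP1 guide libraries share an unexplained tag, CL2. Those of replicates 2 and 3 both end in CL2_3. A p-value here thus speaks only of the scatter among sequenced libraries, which may be technical in part.

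MAP kinases (ERK, JNK and p38) pass on growth and stress signals once phosphorylated on a threonine and a tyrosine of their activation loop, and these phosphatases remove both phosphates. Several of the genes are themselves induced by MAP kinase signalling, so that they act as negative feedback. The family is commonly divided into nuclear inducible enzymes (DUSP1, DUSP2, DUSP4 and DUSP5), cytoplasmic enzymes that prefer ERK (DUSP6, DUSP7 and DUSP9) and enzymes that prefer JNK and p38 (DUSP8, DUSP10 and DUSP16). In skin, DMBA and TPA tumours are known to be driven by activated Ras, which signals through ERK.

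The mouse libraries held 34378300 to 47883625 counts and the A431 libraries 41183478 to 53456450. The biological coefficient of variation of a typical gene was 36.6% in mouse and 6.11% in A431. Summed keratinocyte markers were at 57740 to 61480 CPM (read counts scaled to a common library total) in KO SCC, 48670 to 75960 in KO papilloma, 43990 to 46000 in WT SCC and 10440 to 20370 in WT skin. Keratinocyte transcripts were thus present in every group, but the sections were mixed tissue. In bulk samples fewer cells of a type and less RNA per cell cannot be told apart. Counts of 4 single-copy Y chromosome genes summed to 0 and 4779 in the first and second KO SCC library, to 0 in every KO papilloma and WT SCC library, and to 6624, 9552 and 7 in WT skin replicates 1, 2 and 3. Xist, the RNA of X inactivation, was at 15.3 CPM in that second KO SCC library, at 0.0745 and 0.705 CPM in WT skin replicates 1 and 2 and at 203 to 497 CPM in the other 8 libraries. KO SCC and WT skin thus each held libraries with and without Y chromosome counts, and where a call of 1 of the 10 genes ended or began in a fit with their presence as a covariate, that value is given. Dusp1 transcript was not lower in the mouse libraries labelled KO than in WT SCC, whereas DUSP1 was lower in the A431 KO libraries (values below). Gene-level counts cannot tell which exons were read, so "KO" below is the label of the mouse libraries.

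The promoters of the 4 genes with the highest levels per kilobase are shown: Dusp1 as the targeted gene, and Dusp5, Dusp6 and Dusp7 as the 3 abundant genes that rose in all 3 lesion groups against skin. Each sequence is RefSeq on GRCm38.p6, runs 5′ to 3′ on the gene's own strand, and covers 250 bases before the start site and 50 bases from it. Capitals mark matches to a cAMP response element (TGACGTCA), an E-box (CACGTG) or a CArG box, the motif bound by serum response factor.
Dusp1 (chr17:26508423-26508722, minus strand): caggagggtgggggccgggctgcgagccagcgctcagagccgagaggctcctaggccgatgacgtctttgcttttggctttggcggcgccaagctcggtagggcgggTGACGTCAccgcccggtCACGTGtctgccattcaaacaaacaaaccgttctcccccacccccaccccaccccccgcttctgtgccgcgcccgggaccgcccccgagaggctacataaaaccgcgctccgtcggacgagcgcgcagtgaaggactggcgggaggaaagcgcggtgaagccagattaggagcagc
Dusp5 (chr19:53528895-53529194, plus strand): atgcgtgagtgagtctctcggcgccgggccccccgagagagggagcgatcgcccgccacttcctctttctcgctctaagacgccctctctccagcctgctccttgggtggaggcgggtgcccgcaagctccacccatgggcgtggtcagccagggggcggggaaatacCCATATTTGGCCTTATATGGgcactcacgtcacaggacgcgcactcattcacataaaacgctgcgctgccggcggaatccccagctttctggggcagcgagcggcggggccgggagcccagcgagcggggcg
Dusp6 (chr10:99262981-99263280, plus strand): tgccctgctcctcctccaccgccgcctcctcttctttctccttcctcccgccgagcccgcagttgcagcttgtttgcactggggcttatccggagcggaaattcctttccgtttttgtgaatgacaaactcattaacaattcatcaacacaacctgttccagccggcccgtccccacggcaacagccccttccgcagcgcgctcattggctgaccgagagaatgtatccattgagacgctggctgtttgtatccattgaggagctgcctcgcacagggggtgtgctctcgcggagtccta
Dusp7 (chr9:106368382-106368681, plus strand): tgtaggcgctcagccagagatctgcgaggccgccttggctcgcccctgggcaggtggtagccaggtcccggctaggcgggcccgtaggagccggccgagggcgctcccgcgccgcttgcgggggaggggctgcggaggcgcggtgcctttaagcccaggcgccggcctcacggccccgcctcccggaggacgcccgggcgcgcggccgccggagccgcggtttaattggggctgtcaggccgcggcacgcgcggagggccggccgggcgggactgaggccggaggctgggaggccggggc
Of the 10 genes, 8 were matched to a promoter by symbol. Both strands were searched for 5 motifs, and the share of all 32851 promoters of this length with a match was 1.79% for the cAMP response element, 7.15% for the E-box, 1.63% for the CArG box, 7.81% for the AP-1 site (TGANTCA) and 14.9% for the ETS core (CCGGAA). The Dusp1 promoter held 1 cAMP response element beginning 143 bases before the start site and 1 E-box beginning 126 bases before it. The Dusp5 promoter held 2 adjacent CArG boxes, beginning 82 and 72 bases before the start site. Among the promoters not shown, Dusp8 held 2 cAMP response elements and Dusp2 held 1 E-box, while these letters were not in the windows of Dusp6, Dusp7, Dusp10 or Dusp16, and those of the AP-1 site and the ETS core were in none of the 8. The motifs do not overlap one another in these windows. GC content was 67.0% for Dusp1, 66.7% for Dusp5, 57.3% for Dusp6 and 78.7% for Dusp7, against a median of 52.7% over all promoters of the table. These are matches of letters and describe no binding.

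The genes lie on different chromosomes (GENCODE M21, GRCm38). Dusp1 spans 26505590 to 26562128 of chromosome 17 (minus strand), Dusp5 53529109 to 53542431 of chromosome 19, Dusp6 99263231 to 99267489 of chromosome 10 and Dusp7 106368632 to 106375724 of chromosome 9 (plus strand each). Dusp9 lies on the X chromosome from 73639419 to 73643514, Dusp10 on chromosome 1 from 184013302 to 184075636 and Dusp4 on chromosome 8 from 34807297 to 34819894. Exons of Dusp5 share 547 bases with an antisense gene, those of Dusp8 share 66 bases and those of Dusp1 share 11 bases with Ergic1 on the other strand. No source used here says whether counting was by strand, and Dusp5 and Dusp8 in particular may include reads of their partners.

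Per kilobase of exon, 4 genes made up most of the family's transcript in every mouse group: Dusp7, Dusp6, Dusp1 and Dusp5. The 10 genes summed to 247 and 221 CPM per kb in KO SCC, to 213, 217 and 265 in KO papilloma, to 280.4, 341 and 297 in WT SCC and to 102, 97.6 and 95.1 in WT skin. All 8 lesion libraries lay above all 3 skin libraries, and the 5 libraries labelled KO lay below the 3 WT SCC libraries. In KO SCC the order was Dusp7 (84.4 ± 5.49 CPM per kb, SD, n = 2), Dusp6 (58.9 ± 20.6), Dusp1 (47.4 ± 7.5) and Dusp5 (31.4 ± 0.334). In KO papilloma it was Dusp7 (78.9 ± 11.8, n = 3), Dusp6 (74.0 ± 33.3), Dusp1 (35.0 ± 3.38) and Dusp5 (32.3 ± 3.05). The libraries of Dusp6 overlapped those of Dusp1 in KO SCC and those of Dusp7 in KO papilloma, and Dusp1 and Dusp5 overlapped in KO papilloma, so these neighbours did not differ beyond their spread. In WT SCC Dusp6 came first at 147 ± 14.8 CPM per kb (n = 3), above Dusp7 at 93.2 ± 13.5, Dusp5 at 31.8 ± 2.65 and Dusp1 at 22.5 ± 2.61, with no overlap between neighbours. In WT skin Dusp1 (25.7 ± 8.89), Dusp6 (25.6 ± 7.05) and Dusp7 (21.1 ± 3.81) overlapped, and Dusp5 followed at 9.81 ± 0.73. The other 6 genes stood at 0.387 to 4.88 CPM per kb on average in every group, the lowest being Dusp9 in skin and WT SCC and Dusp10 in both groups labelled KO. With the longest coding transcript in place of all exons, the length of Dusp1 is 1990 rather than 3311 bases, and Dusp1 then ranks above Dusp6 in KO SCC and above Dusp5 in WT SCC, Dusp6 above Dusp7 in KO papilloma, and some of the low genes change places.

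Cytoplasmic ERK phosphatases made up 62.0% ± 6.29 of the family sum per kb in KO SCC (SD, n = 2), 66.3% ± 5.72 in KO papilloma, 78.5% ± 1.69 in WT SCC and 47.9% ± 3.18 in WT skin (n = 3 each). The nuclear inducible genes made up 36.0% ± 6.28 in KO SCC, 30.7% ± 5.16 in KO papilloma, 19.5% ± 1.58 in WT SCC and 43.2% ± 4.43 in WT skin. The JNK and p38 phosphatases made up 2.01% of the sum in KO SCC, 2.91% in KO papilloma, 2.06% in WT SCC and 8.9% in WT skin. Lesions thus held a larger share of cytoplasmic ERK phosphatase transcript than skin, and WT SCC the largest.

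**Figure D1:**
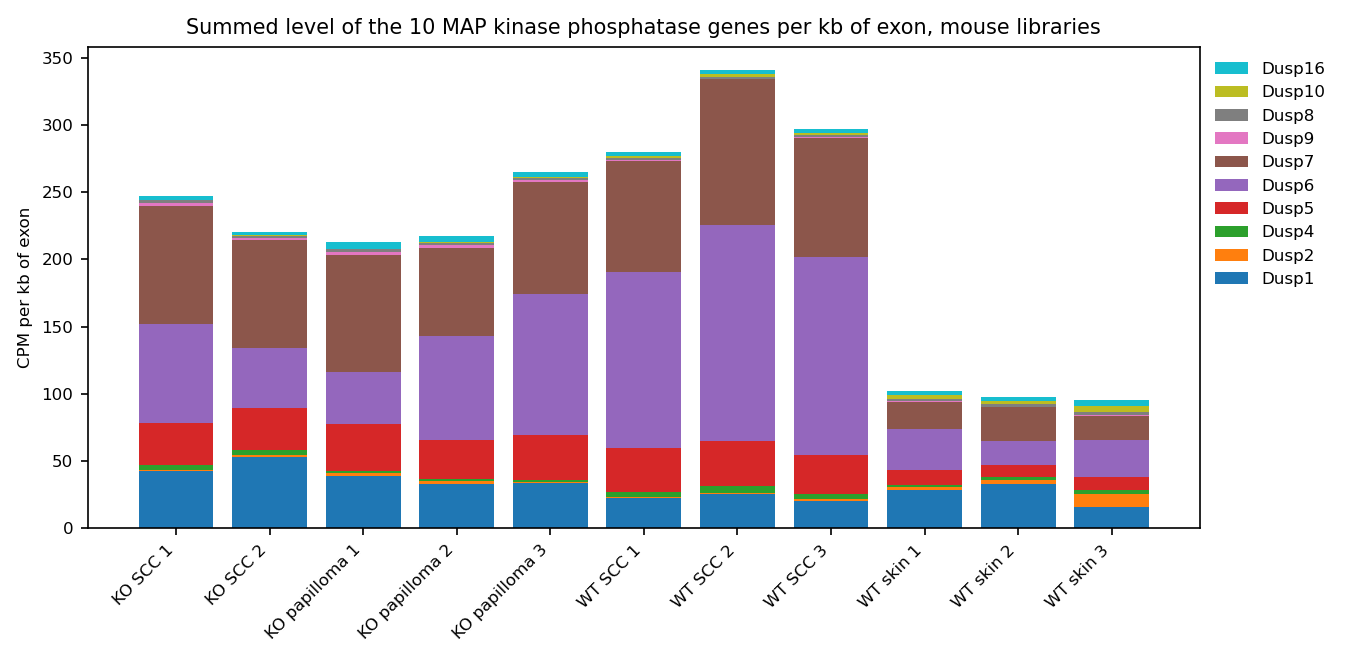
Stacked level of the 10 genes in each mouse library, as CPM per kilobase of exon (bars start at 0, 1 colour per gene). WT SCC libraries reach 280.4 to 341 CPM per kb and WT skin libraries 95.1 to 102, and the Dusp6 segment is the widest in WT SCC.

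Each lesion group was compared with WT skin. KO SCC, KO papilloma and WT SCC share the same 3 skin libraries, so the 3 comparisons are not independent, and skin differed from every lesion in its mix of cells. Keratinocyte markers rose in 6 of 10 in KO SCC, 7 in KO papilloma and 8 in WT SCC, and 2, 0 and 1 fell. Their sums were 43990 to 75960 CPM in lesion libraries and 10440 to 20370 CPM in skin libraries. Their part in the values below was not tested. In KO SCC 9 of the 10 genes passed the threshold (adjusted p under 0.05, edgeR quasi-likelihood test with Benjamini-Hochberg adjustment), 6 higher and 3 lower, where 44.8% of all 22371 genes tested were called, 20.5% higher and 24.3% lower. In KO papilloma 6 passed, 4 higher and 2 lower, against 39.6% of all genes, 17.1% higher and 22.4% lower. In WT SCC 7 passed, 5 higher and 2 lower, against 40.5% of all genes, 16.9% higher and 23.6% lower. The median log2 fold change of the 10 genes was 0.90 in KO SCC, 0.35 in KO papilloma and 0.34 in WT SCC, beside -0.30, -0.22 and -0.16 over all genes tested.

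Among the nuclear inducible genes, Dusp5, whose product acts on ERK, stood at 77.1 and 78.3 CPM in KO SCC, at 85.5, 71.2 and 82.5 in KO papilloma, at 80.9, 83.8 and 71.3 in WT SCC and at 26.3, 22.8 and 23.7 in WT skin. The lesion libraries lay within a narrow band, with no overlap with skin. The log2 fold change against skin was 1.68 ± 0.13 in KO SCC (SE, adjusted p = 9.27e-06), 1.72 ± 0.12 in KO papilloma (adjusted p = 6.68e-06) and 1.70 ± 0.12 in WT SCC (adjusted p = 7.56e-06), that is 3.2-fold, 3.29-fold and 3.24-fold. Of the 10 genes Dusp5 had the smallest standard error in each of these comparisons.

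Dusp4, a nuclear enzyme that acts on ERK and JNK, was at 11.1 and 9.81 CPM in KO SCC, at 5.26, 4.72 and 3.01 in KO papilloma, at 9.79, 12.8 and 11 in WT SCC and at 4.49, 5.22 and 7 in WT skin. Carcinomas of both labels lay above skin, while papillomas overlapped it. Against skin Dusp4 rose in KO SCC (log2 fold change 0.91 ± 0.27, adjusted p = 0.0173) and in WT SCC (1.01 ± 0.24, adjusted p = 0.00768), and the papilloma value was -0.36 ± 0.25 (adjusted p = 0.255). The KO SCC call was lost without WT skin replicate 1 (adjusted p = 0.0553), WT skin replicate 2 (0.0562) or KO SCC replicate 1, and with the replicate number as a block. That of WT SCC was lost with Y chromosome presence as a covariate (adjusted p = 0.0707).

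Dusp2, an inducible enzyme best known from lymphocytes, was at 1.44 and 2.76 CPM in KO SCC, at 3.32, 3.36 and 2.59 in KO papilloma, at 2.24, 1.92 and 2.24 in WT SCC and at 4.17, 5.76 and 19.4 in WT skin. Skin lay above every lesion library, and WT skin replicate 3 stood far above the other two. Dusp2 fell in all 3 lesion groups, with a log2 fold change of -2.21 ± 0.60 in KO SCC (adjusted p = 0.0111), -1.66 ± 0.50 in KO papilloma (adjusted p = 0.0218) and -2.2 ± 0.51 in WT SCC (adjusted p = 0.0059). Without WT skin replicate 3 the value was -1.24 in KO SCC (adjusted p = 0.0176), -0.67 in KO papilloma (adjusted p = 0.117) and -1.21 in WT SCC (adjusted p = 0.0122), and without KO SCC replicate 1 the KO SCC value was -1.82 (adjusted p = 0.116). The papilloma call was also lost without any 1 papilloma library (adjusted p 0.0526 to 0.071) and with the replicate number as a block. In a fit of only the groups compared, the papilloma and KO SCC calls were both lost. Of 10 T cell markers tested, 8 also fell and 1 rose in WT SCC. Of the same 10, 9 fell in KO SCC and 8 in KO papilloma, with 1 higher in each. The marker that rose in WT SCC, Trbc2, averaged 115 CPM in WT SCC and 39.6 CPM in WT skin and made up most of the WT SCC sum of 117 to 150 CPM (78.6 to 138 in WT skin). The other 9 averaged 0.281 (Cd8b1) to 3.72 CPM (Cd4) in WT SCC and 3.36 (Trac) to 17.8 CPM (Cd3g) in WT skin. Macrophage markers summed to 204 to 270.3 CPM in KO SCC, 219.6 to 299.7 in KO papilloma, 323 to 417 in WT SCC and 614 to 1469 in WT skin. Across WT skin replicates 1, 2 and 3 the T cell sum was 138, 103 and 78.6 CPM and the macrophage sum 1109, 614 and 1469 CPM. Replicate 3, highest in Dusp2, was thus lowest in the T cell sum and highest in the macrophage sum. It was also highest in the B and plasma cell sum (591, 560 and 886 CPM in replicates 1, 2 and 3). The same held for the melanocyte sum (56.2, 87.9 and 336 CPM). Its keratinocyte, fibroblast, neutrophil and endothelial sums were the lowest among the WT skin replicates. The part of these cell types in the Dusp2 values was not tested.

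Dusp1, the immediate early phosphatase of JNK, p38 and ERK, was at 139 and 174 CPM in KO SCC, at 129, 109 and 109.6 in KO papilloma, at 73.3, 83.7 and 66.6 in WT SCC and at 94.1, 109 and 52.4 in WT skin. It rose against skin in KO SCC (log2 fold change 0.88 ± 0.25, adjusted p = 0.0153). That call was lost without KO SCC replicate 2 (0.71) and in a fit of only the groups compared. The values were 0.44 ± 0.23 in KO papilloma (adjusted p = 0.146) and -0.19 ± 0.23 in WT SCC (adjusted p = 0.515). The papilloma value passed without the filter on low counts (0.53, adjusted p = 0.0391) and with the Y chromosome covariate (0.96, adjusted p = 0.00685), and was 0.20 without WT skin replicate 3. Without WT skin replicate 3 the WT SCC value was -0.44 (adjusted p = 0.0481), and with Y chromosome presence as a covariate it was 0.32, so its direction in WT SCC was not stable.

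All 3 cytoplasmic ERK phosphatases rose in all 3 lesion groups. Dusp7 was at 296 and 270.3 CPM in KO SCC, at 294, 219.9 and 281 in KO papilloma, at 277, 364 and 298 in WT SCC and at 67.6, 84.9 and 59.9 in WT skin. Every lesion library was above every skin library by a wide margin. The rise was 4.0-fold in KO SCC (log2 2.0 ± 0.19, adjusted p = 2.81e-05), 3.74-fold in KO papilloma (1.90 ± 0.18, adjusted p = 3.15e-05) and 4.42-fold in WT SCC (2.14 ± 0.18, adjusted p = 1.77e-05).

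Dusp6, the feedback phosphatase of ERK, was the most variable of the abundant genes. It stood at 230.2 and 139 CPM in KO SCC, at 122, 244 and 329.5 in KO papilloma, at 411, 504 and 462 in WT SCC and at 97.5, 55.4 and 87.9 in WT skin. Lesions lay above skin, WT SCC lay above all libraries labelled KO, and the 3 papillomas spread widely. Dusp6 rose 2.3-fold in KO SCC (log2 1.20 ± 0.37, adjusted p = 0.0207), 2.89-fold in KO papilloma (1.53 ± 0.34, adjusted p = 0.00463) and 5.72-fold in WT SCC (2.52 ± 0.35, adjusted p = 0.000283). The KO SCC call was lost without KO SCC replicate 1 (0.80, adjusted p = 0.22) or WT skin replicate 2 (0.97, adjusted p = 0.0709), and the papilloma call with the Y chromosome covariate (1.24, adjusted p = 0.0571).

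Dusp9, an X-linked gene whose product prefers ERK and is best known from placenta and embryonic stem cells, was low throughout. It stood at 6.35 and 5.69 CPM in KO SCC, at 4.81, 5.82 and 3.38 in KO papilloma, at 2.12, 1.48 and 2.07 in WT SCC and at 0.943, 0.927 and 1.29 in WT skin. The groups formed 3 separate levels, with the libraries labelled KO on top. Against skin it rose 5.69-fold in KO SCC (log2 2.51 ± 0.31, adjusted p = 0.000105), 4.42-fold in KO papilloma (2.14 ± 0.28, adjusted p = 0.000216) and 1.79-fold in WT SCC (0.84 ± 0.28, adjusted p = 0.0337). The WT SCC call was lost under 8 of 12 alternatives, among them the absence of WT skin replicate 1 or 2 or of WT SCC replicate 1 or 3 (adjusted p 0.0851 to 0.0998) and the Y chromosome covariate (0.64, adjusted p = 0.204).

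Among the JNK and p38 phosphatases, Dusp10 was at 1.39 and 2.33 CPM in KO SCC, at 1.91, 1.75 and 2.28 in KO papilloma, at 5.14, 5.46 and 4.52 in WT SCC and at 8.91, 6.41 and 13.6 in WT skin. It was highest in skin, intermediate in WT SCC and lowest in the libraries labelled KO, without overlap between these levels. Against skin it fell, with a log2 fold change of -2.37 ± 0.36 in KO SCC (adjusted p = 0.000405), -2.28 ± 0.31 in KO papilloma (adjusted p = 0.000237) and -0.94 ± 0.29 in WT SCC (adjusted p = 0.0259). The WT SCC call was lost without WT skin replicate 3 (-0.59, adjusted p = 0.112) or any 1 WT SCC library (adjusted p 0.0609 to 0.0761).

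Dusp16 was at 21.8 and 18 CPM in KO SCC, at 37.2, 33.7 and 28 in KO papilloma, at 23.5, 25.9 and 25.5 in WT SCC and at 24.8, 26.6 and 31.9 in WT skin. Its fall in KO SCC against skin (log2 fold change -0.48 ± 0.17, adjusted p = 0.0393) was lost under 7 of 11 alternatives, among them the absence of WT skin replicate 3 (adjusted p = 0.0942) or of KO SCC replicate 1 (0.0734) or 2 (0.268). Dusp8 ranged from 6.63 to 8.31 CPM in KO SCC, 6.93 to 9.64 in KO papilloma, 6.76 to 7.35 in WT SCC and 7.8 to 12.3 in WT skin, and did not pass the threshold in any of the 3 comparisons (log2 fold changes -0.36, -0.16 and -0.46, adjusted p 0.236, 0.554 and 0.105). With the Y chromosome covariate it passed in WT SCC (-0.74, adjusted p = 0.0269). Skeletal muscle markers fell in 10 of 10 in all 3 lesion groups, with sums of 10.9 to 151.5 CPM in lesion libraries and 5962 to 8284 CPM in WT skin libraries, and their part in these values was not tested.

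**Figure D2:**
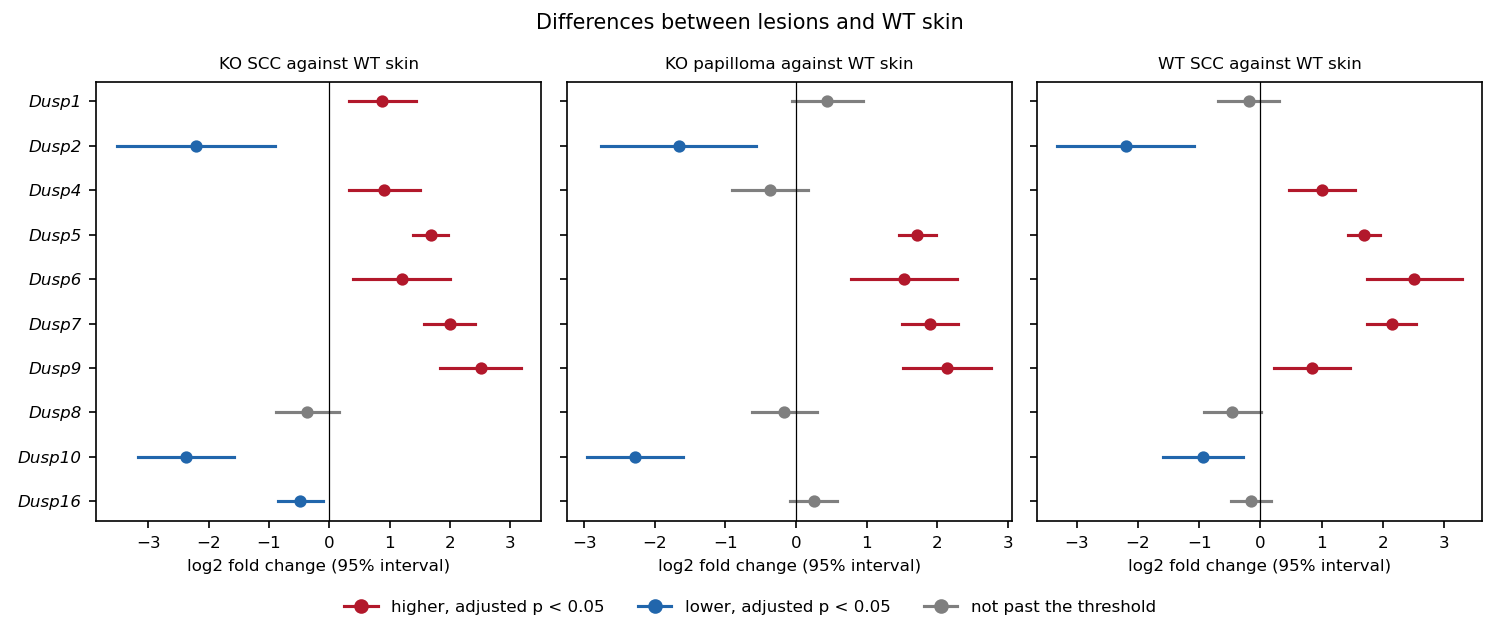
Log2 fold change of each gene in KO SCC, KO papilloma and WT SCC against WT skin (points, with 95% intervals; red higher and blue lower at adjusted p under 0.05, grey not past it). Dusp5, Dusp6, Dusp7 and Dusp9 lie right of 0 and Dusp2 and Dusp10 left of 0 in all 3 panels, all past the threshold.

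The pair of groups with the same lesion and different genotype labels was KO SCC and WT SCC. Of the 10 genes 3 passed, Dusp1 and Dusp9 higher and Dusp10 lower, where 7.87% of all genes tested were called, 4.48% higher and 3.38% lower. The median log2 fold change of the 10 was -0.06, beside -0.01 over all genes. Dusp1 was 2.11-fold higher at 157 ± 24.8 CPM in KO SCC (SD, n = 2) and 74.5 ± 8.63 CPM in WT SCC (n = 3), with a log2 fold change of 1.07 ± 0.25 (adjusted p = 0.0284). No single library could be dropped from the 5 without ending this call, while the value stayed between 0.90 and 1.23. The replicate number as a block ended the call as well. Dusp9 was 3.18-fold higher, at 6.02 ± 0.468 CPM in KO SCC and 1.89 ± 0.355 CPM in WT SCC (log2 1.67 ± 0.30, adjusted p = 0.00942). It held with the Y chromosome covariate and was lost without WT SCC replicate 2 (1.5, adjusted p = 0.0558) or KO SCC replicate 1 (1.59, adjusted p = 0.0886). Dusp9 was at 6.35 CPM in KO SCC replicate 1, without Y chromosome counts, and at 5.69 CPM in replicate 2, with them. Replicate 2 also held Xist at 15.3 CPM, and this contrast of 1 library with 1 was not tested.

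Dusp10 was 2.7-fold lower, at 1.86 ± 0.671 CPM in KO SCC and 5.04 ± 0.477 CPM in WT SCC (log2 fold change -1.43 ± 0.35, adjusted p = 0.033). The call was lost without any 1 of the 5 libraries, with the replicate number as a block and with the Y chromosome covariate (-1.29, adjusted p = 0.0814). Dusp6 averaged 185 ± 64.6 CPM in KO SCC and 459 ± 46.4 CPM in WT SCC, and the groups did not overlap. Its log2 fold change of -1.32 ± 0.39 did not pass (adjusted p = 0.0626), but did with DESeq2 (-1.27, adjusted p = 0.00487), without the filter on low counts (-1.26, adjusted p = 0.00181) and in a fit of these groups alone (-1.33, adjusted p = 0.0037).

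The other 6 genes did not pass. Dusp5 had the narrowest interval, at 77.7 ± 0.825 CPM in KO SCC and 78.6 ± 6.55 CPM in WT SCC, with a log2 fold change of -0.02 and a 95% interval of -0.30 to 0.27. Dusp7 had -0.14 (-0.57 to 0.28), Dusp4 -0.10 (-0.69 to 0.50), Dusp8 0.10 (-0.43 to 0.62), Dusp2 -0.02 (-1.25 to 1.22) and Dusp16 -0.33 (-0.70 to 0.05). Like those of Dusp6, the groups of Dusp16 did not overlap, and the share of all genes without overlap is not given here. Between these groups B and plasma cell markers fell in 3 of 7 tested, with sums of 17.8 to 24.8 CPM in KO SCC and 196 to 203 CPM in WT SCC, and their part in the values above was not tested.

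Papillomas labelled KO were set against WT SCC as well, although lesion type and genotype label cannot be told apart there; WT papillomas were not analysed here. Of the 10 genes 3 passed, where 5.25% of all genes were called (3.49% higher and 1.77% lower), and the same WT SCC libraries served as in the comparison above. Dusp9 was 2.47-fold higher at 4.67 ± 1.22 CPM in KO papilloma and 1.89 ± 0.355 CPM in WT SCC (SD, n = 3 each; log2 1.30 ± 0.28, adjusted p = 0.0203). Dusp10 was 2.54-fold lower at 1.98 ± 0.271 CPM in KO papilloma and 5.04 ± 0.477 CPM in WT SCC (-1.35 ± 0.30, adjusted p = 0.0268). Dusp4 was 2.58-fold lower at 4.33 ± 1.17 CPM in KO papilloma and 11.2 ± 1.52 CPM in WT SCC (-1.37 ± 0.25, adjusted p = 0.00884). The Dusp4 call was lost without WT SCC replicate 2 alone (adjusted p = 0.0541). That of Dusp9 was lost without any 1 WT SCC library or KO papilloma replicate 1 or 2 (0.056 to 0.11), and with the replicate number as a block. That of Dusp10 was lost without any 1 of the 6 libraries (0.0523 to 0.111). Dusp1 and Dusp6 did not pass (0.64 ± 0.23, adjusted p = 0.152, and -0.99 ± 0.34, adjusted p = 0.129). Nor did Dusp2 (0.54 ± 0.50, adjusted p = 0.62), Dusp16 (0.40 ± 0.15, adjusted p = 0.167), Dusp5 (0.02), Dusp7 (-0.24) or Dusp8 (0.30). The groups of Dusp1, Dusp2, Dusp6 and Dusp16 did not overlap, and the share of all genes without overlap is not given here. Dusp1 passed in 3 of 12 alternatives, among them the Y chromosome covariate (0.64, adjusted p = 0.0394), and Dusp6 in 2.

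The lesions labelled KO were compared with each other, the contrast of carcinoma with papilloma at the same label. None of the 10 genes passed in the edgeR fit of all mouse groups, where 0.286% of all genes were called (0.0492% higher and 0.237% lower). At an unadjusted p under 0.05 there were 2, Dusp4 and Dusp16, and the same 2 passed with DESeq2. Dusp4 also passed with edgeR without the filter on low counts (1.31, adjusted p = 0.00924) and with the Y chromosome covariate (1.46, adjusted p = 0.0478). Dusp4 averaged 10.5 ± 0.941 CPM in KO SCC and 4.33 ± 1.17 CPM in KO papilloma (log2 fold change 1.27 ± 0.27, adjusted p = 0.0874, and with DESeq2 1.29, adjusted p = 0.00121). Dusp16 averaged 19.9 ± 2.64 CPM in KO SCC and 33.0 ± 4.62 CPM in KO papilloma (-0.73 ± 0.17, adjusted p = 0.126, and with DESeq2 -0.71, adjusted p = 0.00825). The groups of Dusp4, Dusp16 and Dusp1 did not overlap, and the share of all genes without overlap is not given here. For Dusp1 the value was 0.44 (95% interval -0.12 to 1.0) and for Dusp6 -0.33 (-1.15 to 0.50).

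**Figure D3:**
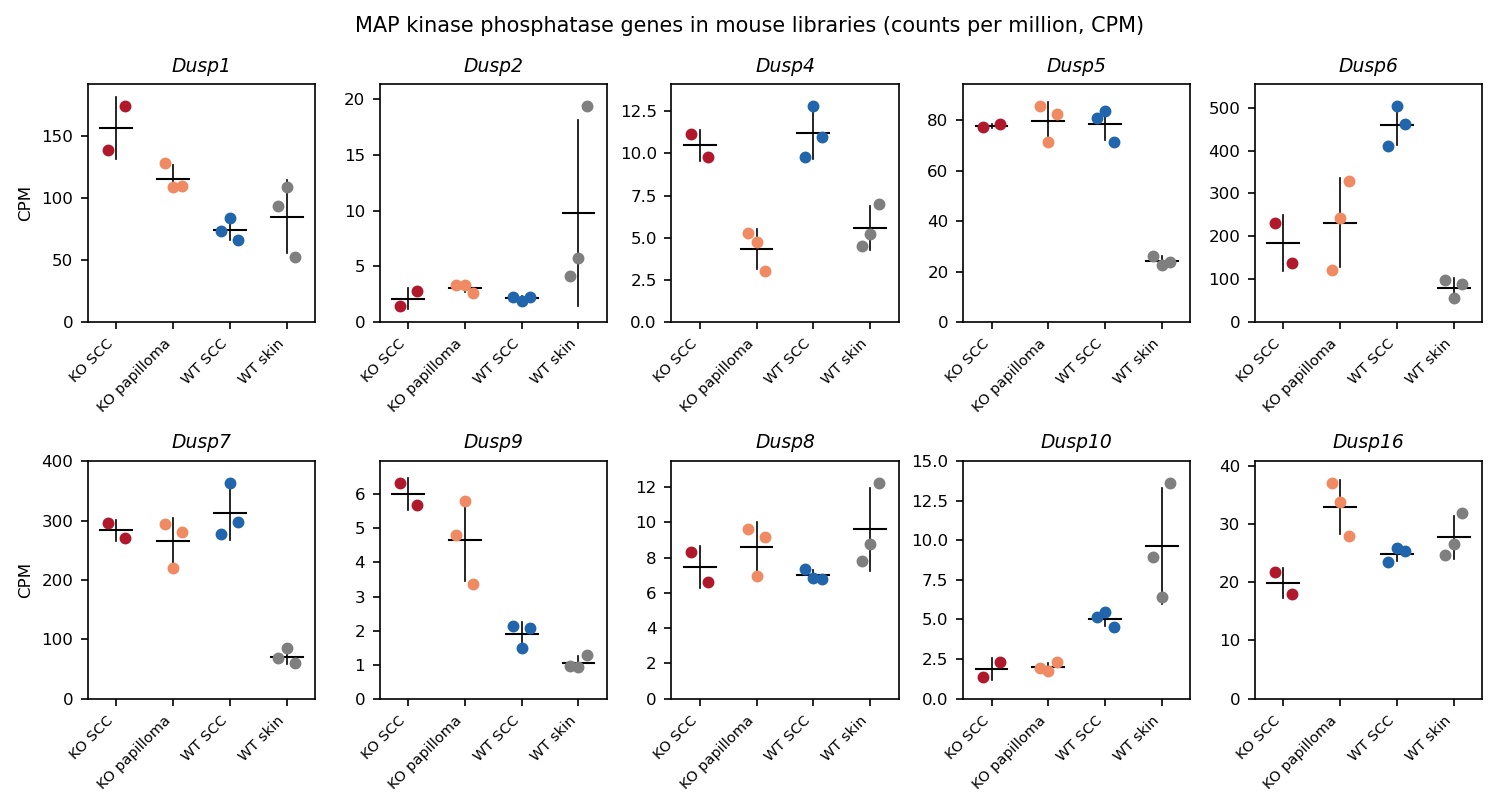
CPM of each gene in every mouse library (points), with the group mean (line) and SD (bar), for KO SCC (n = 2) and KO papilloma, WT SCC and WT skin (n = 3 each). Dusp5 and Dusp7 form 1 level in all lesions above skin, Dusp6 peaks in WT SCC, and Dusp9 and Dusp10 run in opposite directions across the groups.

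In A431 the arms were compared at a much smaller spread, and 8 of the 10 genes passed, 5 higher and 3 lower in DUSP1 KO cells, where 47.6% of all 18090 genes tested were called, 23.1% higher and 24.5% lower. The targeted gene DUSP1 was at 73.6, 71.0 and 77.1 CPM in KO libraries and at 471, 467 and 485 CPM in control libraries, 6.42-fold lower (log2 -2.68 ± 0.05, adjusted p = 4.89e-17). Transcript thus remained in KO cells, at a ratio to control of 0.156. The other nuclear inducible genes went both ways. DUSP4 was at 14.8, 13.2 and 15.5 CPM in KO and at 21.7, 22 and 20.6 CPM in control libraries and fell by 0.56 on the log2 scale (SE 0.07, adjusted p = 7.92e-06). DUSP5 was at 28, 28.4 and 28.1 CPM in KO and at 38.3, 37.1 and 39.0 CPM in control libraries and fell by 0.44 (SE 0.05, adjusted p = 4.27e-06). DUSP2, at 22.6, 20.1 and 20.9 CPM in KO and 17.1, 18.9 and 18.5 CPM in control libraries, rose by 0.22 ± 0.07 (adjusted p = 0.0166). The DUSP2 call was lost without control replicate 1 (adjusted p = 0.123) or KO replicate 1 (0.0621), and without the filter on low counts.

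The 3 cytoplasmic ERK phosphatases rose together, with no overlap between the arms. DUSP6 was at 94.5, 89.9 and 85.6 CPM in KO libraries and at 50.1, 51.7 and 49.4 CPM in control libraries, 1.79-fold higher (log2 0.84 ± 0.05, adjusted p = 7.25e-10). DUSP7 was at 162, 177 and 169.8 CPM in KO and at 112, 110.4 and 113 CPM in control libraries, 1.52-fold higher (0.60 ± 0.05, adjusted p = 1.51e-08). DUSP9 was at 10.0, 7.95 and 8.75 CPM in KO and at 3.74, 4.14 and 3.89 CPM in control libraries, 2.27-fold higher (1.18 ± 0.11, adjusted p = 2.23e-07). These 3 calls, and those of DUSP1, DUSP4 and DUSP5, held under all 10 alternatives.

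Of the JNK and p38 phosphatases, DUSP10 and DUSP16 did not pass. DUSP10 averaged 12.6 ± 0.433 CPM in KO and 13.4 ± 0.794 CPM in control libraries (log2 fold change -0.10, 95% interval -0.26 to 0.07), and DUSP16 averaged 16.2 ± 0.382 CPM in KO and 16.7 ± 0.766 CPM in control libraries (-0.04, -0.19 to 0.10). DUSP8 was at 1.77, 1.5 and 1.49 CPM in KO and at 1.09, 0.927 and 1.23 CPM in control libraries (0.56 ± 0.22, adjusted p = 0.0456), and lost its call under 9 of 10 alternatives, including without any 1 library (adjusted p 0.0534 to 0.169). Its pseudogene DUSP8P5 had 69, 61 and 74 counts in KO and 34, 52 and 41 counts in control libraries, so how reads shared by the copies were assigned leaves the DUSP8 value uncertain. Of the markers of other cell types, T cell markers summed to 5.22 to 5.36 CPM in KO and 1.94 to 2.01 CPM in control libraries. LCK had 131, 97 and 76 counts in KO and 21, 27 and 36 in control libraries, while CD3D, CD3E, CD3G and CD2 had 0 to 3. B and plasma cell markers summed to 1.11 to 1.35 CPM in KO and 0.194 to 0.416 CPM in control libraries. In the same order, endothelial markers summed to 2.46 to 3.08 and 1.44 to 1.53 CPM and adipocyte markers to 14.4 to 16.4 and 11.5 to 11.75 CPM. Melanocyte markers summed to 4.64 to 5.41 and 3.81 to 4.14 CPM, and skeletal muscle markers, which overlapped, to 11.35 to 11.87 and 11.84 to 12.75 CPM. Macrophage markers, mostly ADGRE1, summed to 5.85 to 7.43 CPM in KO and 5.9 to 7.26 CPM in control libraries. Fibroblast markers summed to 161 to 175 CPM in KO and 198 to 203 CPM in control libraries. Neutrophil markers, nearly all S100A8 and S100A9, summed to 1191 to 1260 CPM in KO and 1164 to 1228 CPM in control libraries. AIF1, C1QA, MS4A1, TRBC2 and KDR were among the markers at 0 in all 6 libraries. Keratinocyte markers summed to 69230 to 71190 CPM in KO and 76490 to 80840 CPM in control libraries.

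**Figure D4:**
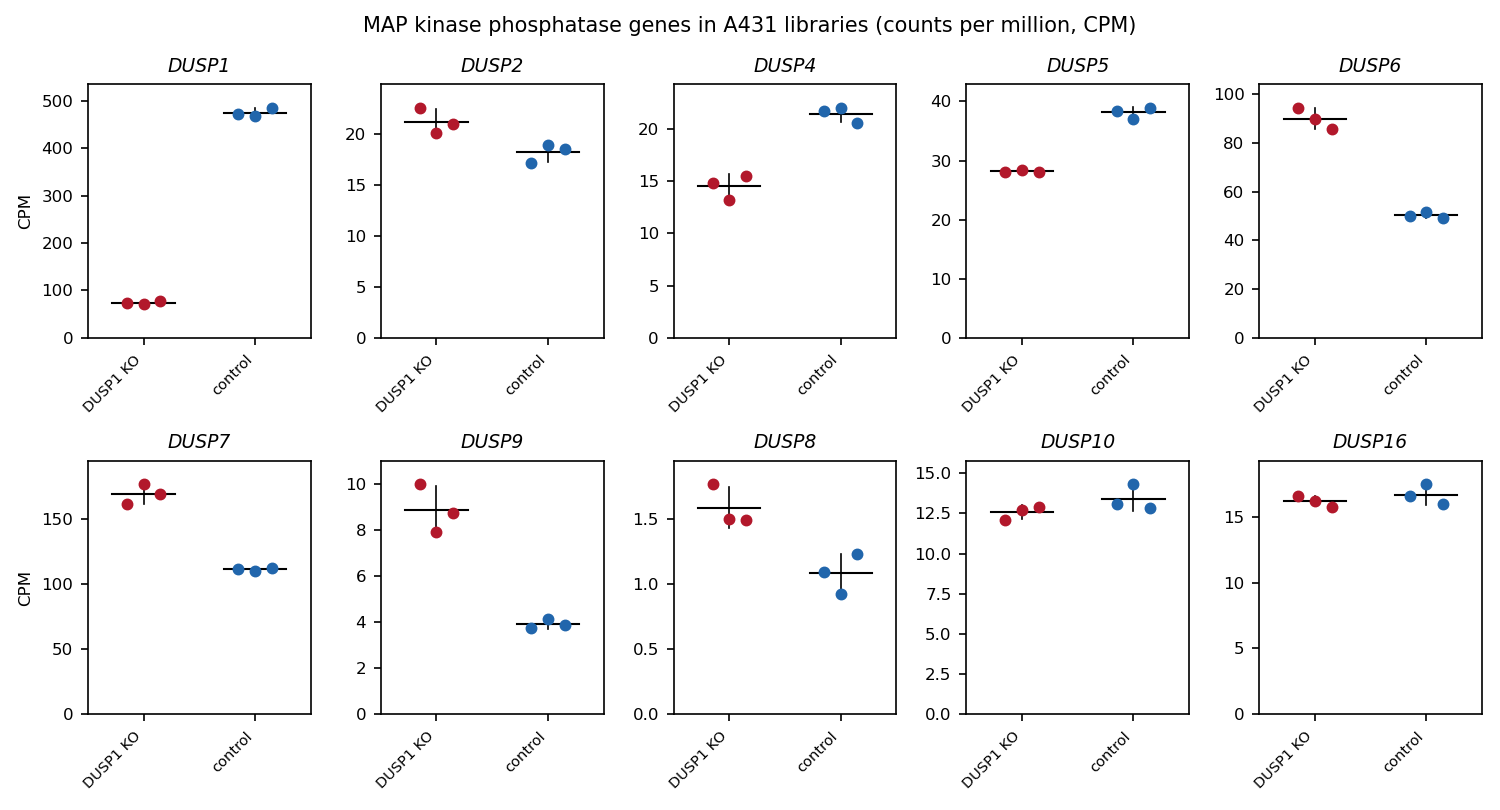
CPM of each gene in the 3 DUSP1 KO and 3 control A431 libraries (points), with mean (line) and SD (bar). DUSP6, DUSP7 and DUSP9 are higher and DUSP1, DUSP4 and DUSP5 lower in DUSP1 KO, each without overlap, and DUSP10 and DUSP16 overlap.

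Side by side, DUSP9 was higher in the libraries labelled KO of both species (log2 1.67 in mouse SCC and 1.18 in A431). Dusp1 had 1.07 in mouse and -2.68 in A431, Dusp6 -1.32 (not past the threshold) and 0.84, and Dusp10 -1.43 and -0.10 (not past the threshold). The comparisons share no libraries, and the differences between the species were not tested.

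**Figure D5:**
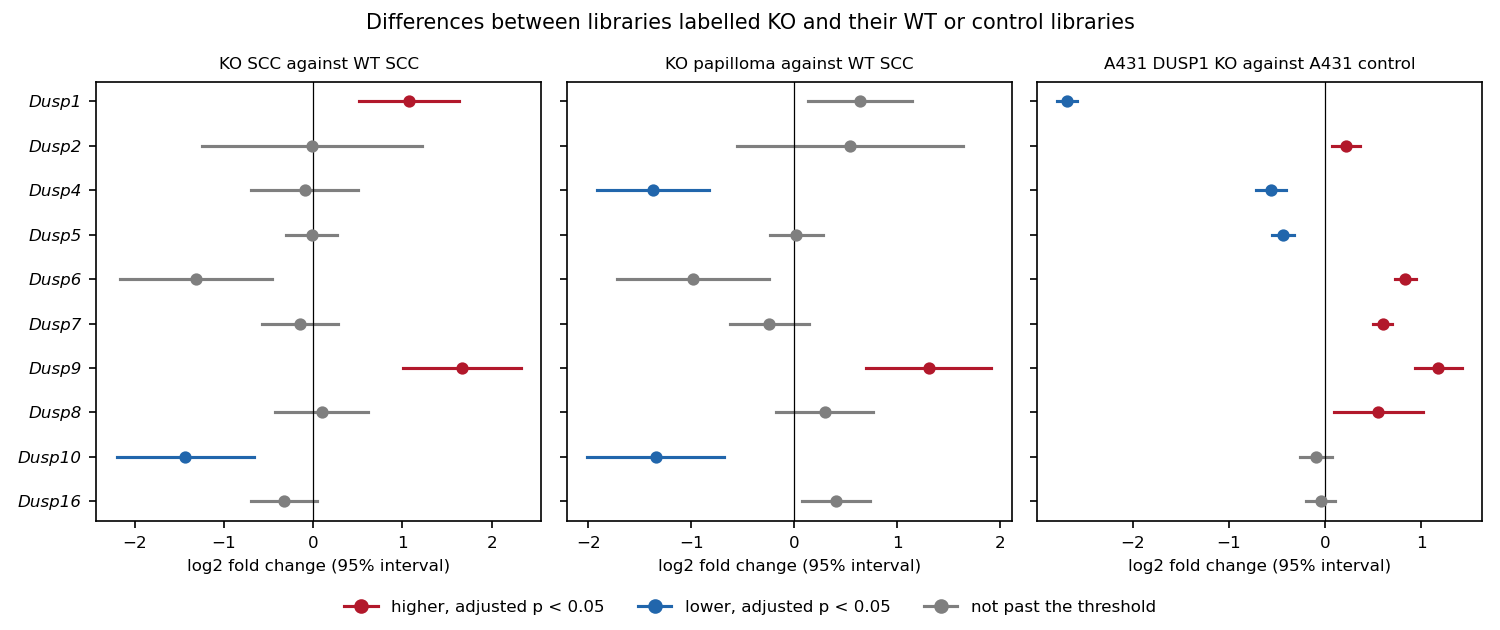
Log2 fold change of each gene, labelled by mouse symbol, in KO SCC against WT SCC, KO papilloma against WT SCC and A431 DUSP1 KO against control (points, with 95% intervals; red higher and blue lower at adjusted p under 0.05, grey not past it). Dusp9 lies right of 0 and past the threshold in all 3 panels, and Dusp1 lies right of 0 in both mouse panels and left of 0 in A431.

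Other genes of the pathway were counted in lists made by function, not by how they moved. Between KO SCC and WT SCC, 1 of 16 immediate early genes rose (the Maf family gene Maff, log2 0.80, adjusted p = 0.016) and 5 fell, among them Egr1, a zinc finger factor induced through ERK (-1.68, adjusted p = 0.00914), Jun (-0.82, adjusted p = 0.0252) and Jund (-0.79, adjusted p = 0.0254), the AP-1 subunits. The list's median was -0.52, and over all genes tested 4.48% were called higher and 3.38% lower. Of 15 ERK feedback and target genes 1 fell, the ETS factor gene Etv5 (-0.81, adjusted p = 0.0343), with a list median of -0.33. Of 14 atypical dual-specificity phosphatases, Dusp14 alone rose (1.02, adjusted p = 0.00618). The kinase gene Map2k4, which activates JNK, rose by 0.53 (adjusted p = 0.0449) and Map2k5, which activates ERK5, fell (-0.67, adjusted p = 0.0495). Of 11 alternatives, Map2k4 passed in 3, Map2k5 in 2, Etv5 in 4, Maff and Jun in 7, Jund in 6 and Egr1 and Dusp14 in 10. In KO papilloma against WT SCC, 0 of the 16 immediate early genes passed with edgeR (list median -0.03), where 4 had an unadjusted p under 0.05 and DESeq2 called 1 higher and 2 lower. Dusp14 rose there too (0.97, adjusted p = 0.00385), with Dusp18 (1.23, adjusted p = 0.043) and Map2k4 (0.59, adjusted p = 0.0219), and the ERK antagonist gene Spry2 fell (-1.03, adjusted p = 0.0156). Spry2 was the only 1 of the 15 ERK feedback and target genes to pass with edgeR (list median -0.46). Of these 15, 10 had an unadjusted p under 0.05 with edgeR, and DESeq2 called 1 higher and 6 lower. Of 12 alternatives, Dusp14 passed in 12, Dusp18 in 6, Map2k4 in 7 and Spry2 in 9. Against skin, ERK feedback and target genes rose in 6 of 15 in KO SCC, 6 in KO papilloma and 9 in WT SCC. They fell in 2 in each. Over all genes tested 20.5%, 17.1% and 16.9% were called higher and 24.3%, 22.4% and 23.6% lower, in the same order. Of 16 immediate early genes 5 rose and 8 fell in KO SCC (median -1.07). In KO papilloma 5 rose and 5 fell (median -0.26), as in WT SCC (median 0.14). Phlda1, a target of ERK signalling, rose by 2.42 in KO SCC, 2.12 in KO papilloma and 2.42 in WT SCC, and Fosl1, an AP-1 subunit stabilised by ERK, by 3.91, 3.85 and 3.89.

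In A431, 12 of 16 immediate early genes fell in DUSP1 KO cells and 3 rose, with a list median of -0.58 beside 0.01 over all genes tested. Each list count in A431 stands beside 23.1% higher and 24.5% lower over all genes tested. The AP-1 subunit genes FOS (log2 -1.11, adjusted p = 9.03e-13), FOSL2 (-0.81) and FOSB (-0.82) and the stress-induced factor gene ATF3 (-0.82) fell. Of 13 ERK feedback and target genes tested 5 rose and 3 fell (median 0.14), the ETS factor genes ETV4 by 1.05 (adjusted p = 4.56e-10) and ETV5 by 1.08 (adjusted p = 3.47e-08) among those that rose. Among the MAP kinases 2 of 10 rose and 4 fell, beside 23.1% higher and 24.5% lower over all genes tested. MAPK9, which encodes JNK2, fell (-1.04, adjusted p = 1.73e-09), and MAPK7, which encodes ERK5, rose by 0.77 (adjusted p = 6.6e-06). Of 7 MAP kinase kinases 2 rose and 3 fell, with MAP2K3, an activator of p38, at 0.68 (adjusted p = 3.25e-08). Of 6 tested tyrosine and serine/threonine phosphatases of MAP kinases, 1 rose and 3 fell (median -0.18), the 3 being the serine/threonine phosphatase gene PPM1A (-0.30) and the catalytic subunit genes of PP2A, PPP2CA (-0.23) and PPP2CB (-0.33). The tyrosine phosphatase gene PTPN7, known from blood cells, was at 0.531 to 0.735 CPM in KO and 0.0416 to 0.114 CPM in control libraries and rose by 3.07 (adjusted p = 7.52e-05), on 22 to 31 counts in KO and 2 to 6 counts in control libraries.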

How the data were processed

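RNA came from whole tissue sections (mouse) or recovered A431 cells and was made into libraries with a stranded mRNA kit, per the labels' protocols. The values are the counts per gene that the authors deposited, whole numbers without normalization, in 1 table for mouse and 1 for A431. HISAT2, StringTie, DESeq and the builds mm10 and hg38 are named, without versions, per the submitters' processing notes. Not given in the sources used here are the rules by which reads were assigned to genes: strand, multiple matches and gene models. Features without a gene name (0.115 to 0.496% of a library) entered neither library sizes nor tests, and 0 columns lacked a sample.

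The 11 mouse libraries were fitted together and the 6 A431 libraries apart with edgeR 4.0.16 in R 4.3.3 (default filter on low counts, TMM scaling with factors of 0.816 to 1.24, quasi-likelihood test, two-sided). p-values were adjusted by Benjamini-Hochberg over all 22371 mouse or 18090 A431 genes tested, and all 10 members were tested in both. Levels are CPM of the scaled library size. Levels per kb used the exon lengths of GENCODE M21, and no human lengths were used, so human levels are not compared between genes. The fit was tested on simulated counts with known changes. Libraries were grouped by their labels. No 2 libraries agreed within sampling noise.

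The members, the lists of pathway and marker genes, the tests and the naming rule were chosen with earlier results of these data known. The rule named all members and, of each pathway list and comparison, at most 4 genes past the threshold by p, from which examples were taken after their values were seen. Alternatives were RLE size factors, no filter beyond 1 count, DESeq2 1.42.0, the replicate number as a block, a fit of only the groups compared, Y chromosome presence as a covariate, and leaving out each library in turn. Where this left 1 library in a group, that library was assumed to vary like the others. The labels state no pairing of samples by replicate number. Promoters and motif matches were read from a RefSeq table of GRCm38.p6.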

Additional observations from a re-analysis of the deposited data

Results flagged for a closer look

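The difference between libraries labelled KO and their controls went opposite ways in mouse carcinomas and in A431 for 2 genes. Dusp1 had a log2 fold change of 1.07 in mouse SCC and -2.68 in A431, and each KO library lay above every WT SCC library in mouse and below every control library in A431. Dusp6 had -1.32 in mouse SCC, which did not pass the threshold, and 0.84 in A431, with each KO library below every WT SCC library in mouse and above every control library in A431. The differences between mouse and A431 were not tested, since the tables come from different species and fits.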

How the results depend on the processing

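Every comparison rested on few libraries. Relative to their size, counts of genes called changed less with skin and in A431 than between the lesion groups. With the Y chromosome covariate they still fell from 9054 to 6101 between WT SCC and skin and from 8852 to 6095 between KO papilloma and skin. Between KO SCC and skin they went from 10013 to 9684. Counts of genes called between KO SCC and WT SCC (1760) moved to 3466 with DESeq2 and to 4160 with only these groups fitted. Between KO papilloma and WT SCC (1175) they moved to 1854 without a filter beyond 1 count, 2232 with DESeq2 and 1797 with only these groups, and 5 members passed without the filter. Between KO SCC and KO papilloma (64) they moved to 611 without the filter, 941 with DESeq2 and 240 with the Y chromosome covariate, where 1, 2 and 1 members passed. With 1 library left out, genes called ranged from 302 to 975 between KO SCC and WT SCC (0 to 1 members), 478 to 1100 between KO papilloma and WT SCC (0 to 2 members), 0 to 84 between KO SCC and KO papilloma, 6755 to 9585 between WT SCC and skin (5 to 7 members), 7239 to 8856 between KO papilloma and skin (5 to 6 members), 5884 to 9891 between KO SCC and skin (5 to 8 members) and 7435 to 9564 in A431 (6 to 7 members).

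With the replicate number as a block, 798 genes and 1 member passed between KO SCC and WT SCC, 803 genes and 2 members between KO papilloma and WT SCC and 1 gene between KO SCC and KO papilloma. The labels state no pairing, and correlations of deviations from the group means between same-numbered libraries were -0.41 to 0.17 over all comparisons. Comparisons with KO SCC share only 2 numbers, so both libraries give the same correlation by construction. The check cannot decide on pairing there.

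The values that changed sign were of members that had not passed the threshold. In KO SCC against WT SCC, Dusp2 was at 0.023 with RLE factors, 0.0405 without the filter, 0.16 with the replicate block, 0.022 with DESeq2 and 0.62 with the Y chromosome covariate, and at -0.56 to 0.38 with 1 library left out. Dusp5 was at 0.022 with RLE factors and with DESeq2, 0.041 without the filter and -0.084 to 0.016 with 1 library left out. Dusp4 was at 0.095 with the Y chromosome covariate and Dusp8 at -0.072 to 0.25 with 1 library left out. In KO papilloma against WT SCC, Dusp5 was at -0.046 to 0.097 with 1 library left out. In KO SCC against KO papilloma, Dusp5 was at 0.0048 without the filter and -0.11 to 0.015 with 1 library left out, and Dusp10 at 0.021 with the block, 0.0602 with the Y chromosome covariate and -0.52 to 0.24 with 1 left out. Dusp2 was at 0.082 and Dusp8 at 0.027 with that covariate, and Dusp7 ranged from -0.0203 to 0.178 and Dusp6 from -0.74 to 0.013 with 1 library left out. Against skin, Dusp1 in WT SCC was at 0.32 with the covariate and -0.44 to 0.018 with 1 library left out, and Dusp8 in KO papilloma at -0.296 to 0.0634. Of the other results under single alternatives, 1752 kept direction and side of the threshold, 182 lost the threshold and 16 gained it. At these numbers of libraries a p that misses the threshold does not show equality.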

Other observations

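By pattern over the 11 mouse libraries, the genes most like each member were those with the smallest mean absolute difference of log2 CPM after centring, among 13866 genes with an average log2 CPM of at least 1. For Dusp5 they were Nrarp (0.10), Prep (0.11) and Eno1 (0.12), and for Dusp7 Ppard (0.11), Cotl1 (0.12) and Slc20a1 (0.12). For Dusp9 they were Hdac1 (0.13), Hopx (0.19) and Myzap (0.19), and for Dusp1 Hcar2, Kbtbd4 and Gm14295 (0.17 to 0.18). For Dusp6, whose pattern had the least close neighbours of the 10, they were Eya2, 1700007K13Rik and Gstm6 (0.31 to 0.34). The remaining members had a nearest gene at 0.11 (Dusp8, Minpp1), 0.14 (Dusp16, Dus2), 0.24 (Dusp2, Lgr4), 0.25 (Dusp4, Taf15) and 0.26 (Dusp10, Gm11223). Libraries share depth and tissue mix, so likeness describes these libraries.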
